A study of Mus musculus with 4 samples.

Results

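Expression of 8 mouse genes for death receptors and other receptors of the tumour necrosis factor (TNF) family was followed in the B16-OVA line, mouse melanoma cells that express ovalbumin from a transgene. The 8 genes were chosen by name, with earlier results of these data known. Each is read by 1 probe of an Affymetrix gene array, and they are 8 of the 22180 genes that a probe with 1 gene symbol measured. The series held 4 arrays. On 2 of them the RNA came from mock transfected cells, and on the other 2 from cells transfected with AT90ES, which the series' text links to a 90mer of double-stranded DNA. Per the labels, transfection used the cationic lipid Lipofectamine and lasted 6 hours in every case, and what the mock cells were given is not stated. An effect of the DNA therefore cannot be told apart from one of the transfection mixture. The labels do not say that the arrays of a group came from separate cultures, and all of them came from a single cell line, so p-values measure only the spread between these arrays.

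Receptors of the TNF family sit in the cell membrane and are gathered into clusters by trimeric ligands. Fas, Tnfrsf10b and Tnfrsf1a carry an intracellular death domain, which recruits adaptors such as FADD or TRADD and can activate caspase-8. The other receptors lack this domain and bind TRAF adaptors, which lead mainly to NF-kappaB and kinase signalling. The transcription factor p53, which responds to DNA damage, is known to induce Fas, Tnfrsf10b and Eda2r, and these are called the p53-linked receptors here. The other 5 receptors are Tnfrsf1a, Tnfrsf1b, Tnfrsf12a, Cd40 and Tnfrsf9. Whether p53 acted on any receptor gene in these cells was not tested.

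Stretches of promoter are shown for the p53-linked receptors that the RefSeq table of gene starts holds and for the receptors whose window held a motif searched. The table held 7 windows for 6 of the 8 genes, Tnfrsf9 with 2 starts and Tnfrsf10b and Cd40 with none. Each window ran from 250 bases before to 50 bases after the start, and the 250 bases before it are printed on the gene's strand, with capitals for a motif match. The Fas stretch lies at chr19:34290409-34290658 (plus strand) and that of Eda2r at chrX:97377210-97377459 (minus strand). The Tnfrsf1b stretch lies at chr4:145246871-145247120 (minus strand) and that of the second start of Tnfrsf9 at chr4:150927749-150927998 (plus strand), all in GRCm38.p6.
Fas: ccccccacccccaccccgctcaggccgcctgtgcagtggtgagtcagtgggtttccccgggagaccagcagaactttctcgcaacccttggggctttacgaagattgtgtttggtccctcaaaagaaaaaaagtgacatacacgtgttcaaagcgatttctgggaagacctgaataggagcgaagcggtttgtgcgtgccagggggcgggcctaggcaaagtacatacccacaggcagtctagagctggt
Eda2r: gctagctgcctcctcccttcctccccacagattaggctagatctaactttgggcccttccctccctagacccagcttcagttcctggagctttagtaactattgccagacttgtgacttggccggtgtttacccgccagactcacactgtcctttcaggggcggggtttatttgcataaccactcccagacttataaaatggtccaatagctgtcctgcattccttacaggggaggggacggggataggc
Tnfrsf1b: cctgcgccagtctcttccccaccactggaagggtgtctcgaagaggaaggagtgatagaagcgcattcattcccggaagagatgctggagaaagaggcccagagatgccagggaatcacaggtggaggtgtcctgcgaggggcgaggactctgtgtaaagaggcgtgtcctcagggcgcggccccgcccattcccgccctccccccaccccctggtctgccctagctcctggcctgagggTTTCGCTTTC
Tnfrsf9: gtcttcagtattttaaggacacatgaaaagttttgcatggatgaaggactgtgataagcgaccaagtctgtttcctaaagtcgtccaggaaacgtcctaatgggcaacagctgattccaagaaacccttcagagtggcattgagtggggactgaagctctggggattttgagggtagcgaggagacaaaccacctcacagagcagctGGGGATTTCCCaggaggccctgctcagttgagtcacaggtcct

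Both strands of the windows were searched for 3 motifs: the p53 half-site consensus, the NF-kappaB consensus and a core of the interferon-stimulated response element, spelled TTTC, any 2 bases, TTTC. The p53 half-site was found in 0 of the 7 receptor windows and in 8.36% of all 32851 windows in the table. The interferon core was found once, in the last 10 bases before the start of Tnfrsf1b, against 3.44% of all windows. The NF-kappaB consensus was found at the second start of Tnfrsf9, as 2 overlapping matches that begin at positions -43 and -42 from the start, against 8.46% of all windows. These matches describe letters in a short window, and a missing match says nothing of sites elsewhere in a gene.

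Probe values were log2 levels made by RMA, and the level that marks background on an array was taken as the 95th percentile of its 1105 olfactory receptor genes, which stand here for genes that are silent. That mark lay between 4.85 and 5.07 over the 4 arrays. Of the 10 pigment cell markers, 9 lay above it on each array, with Dct and Tyrp1, enzymes of melanin synthesis, at mean log2 levels of 12.91 and 12.77 in mock cells. Of 14 measured leukocyte markers, 12 lay under it on all 4 arrays, the pan-leukocyte gene Ptprc and the T cell gene Cd3e among them (both named after their values were seen), while Lyz2 and Csf1r lay above it on all 4. The summed log2 levels of the 14 were 62.45 and 60.02 in mock cells, against 58.64 and 60.37 in AT90ES cells. Of 11 measured stromal, endothelial and epithelial markers, 5 lay above background on all 4 arrays and 2 under it on all 4. Markers of other cell types thus also passed the background mark. Over all genes, limma called 92 higher and 0 lower in AT90ES cells, with 999 higher and 1017 lower at an unadjusted p under 0.05.

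Of the 8 receptor genes, 1 was called higher in AT90ES cells and 0 lower, against 0.415% of all genes called higher and 0% called lower, at a limma adjusted p under 0.05. At an unadjusted p under 0.05 limma had 4 of the 8 higher, against 4.5% of all genes, and 1 lower, against 4.59%. On both AT90ES arrays 5 of the 8 lay above both mock arrays, against 17.7% of all genes, and 1 lay below both, against 22.1%. The median change of the 8 was 0.35 on the log2 scale, beside -0.02 over all genes. Since the 8 were chosen with earlier results of these data known, these shares describe the set and are no test of it. The gene called was Tnfrsf10b. In these bulk samples a gene raised in all cells and one raised in some of them cannot be told apart.

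Tnfrsf10b encodes DR5, the mouse receptor through which the ligand TRAIL triggers cell death. Its log2 levels were 6.23 and 6.86 on the mock arrays, against 8.71 and 8.52 on the AT90ES arrays. Both AT90ES arrays stood clear of both mock arrays, and all 4 lay above background. The mean rose from 6.55 ± 0.44 to 8.61 ± 0.13 (SD, n = 2 arrays per group), a rise of 2.07 ± 0.22 on the log2 scale (SE) or 4.19-fold, with a limma adjusted p = 0.0369. The limma 95% interval ran from 2.85-fold to 6.16-fold. Over the 4 pairings of an AT90ES array with a mock array the difference ran from 1.66 to 2.48, larger than the 0.63 between the mock arrays. The mock arrays differed more from each other than the AT90ES arrays did. By size of rise Tnfrsf10b was number 35 of the 22180 genes. The call was lost without either AT90ES array (adjusted p = 0.231 without replicate 1 and 0.17 without replicate 2), and also with every probe of the array tested separately (adjusted p = 0.203). The rise was 1.97 and 2.16 in those 2 fits and 2.07 in the last.

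Fas, the receptor of Fas ligand and the archetype of the death receptors, had log2 levels of 4.30 and 4.33 on the mock arrays, against 5.15 and 4.99 on the AT90ES arrays. The groups did not overlap, with both mock arrays under background and both AT90ES arrays above it, by 0.30 and 0.07. The difference was 0.75 ± 0.12 (SE) on the log2 scale, or 1.69-fold, and did not pass (limma adjusted p = 0.143). Its 95% interval, 1.37-fold to 2.08-fold, covers only the spread between arrays, and since the mock level lay under background the size is uncertain. With dim probes left out, which kept 7 of the 8 receptors, Fas passed (adjusted p = 0.0437) in a fit that called 1.27% of its 12998 genes higher. That filter asks for 2 arrays above background, and Fas met it only through the AT90ES arrays, where it is high, so this pass adds no support.

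Eda2r encodes XEDAR, the receptor of the A2 form of ectodysplasin, which signals without a death domain. Its log2 levels were 4.42 and 3.97 on the mock arrays, against 4.88 and 4.85 on the AT90ES arrays. The groups did not overlap, but only AT90ES replicate 1 lay above background, by 0.03. The difference of 0.67 ± 0.17 (SE) did not pass (limma adjusted p = 0.375), and it was the 1 receptor left out by the filter on dim probes. For a gene this close to background on all arrays, the data bound neither the level nor the change well.

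**Figure D1:**
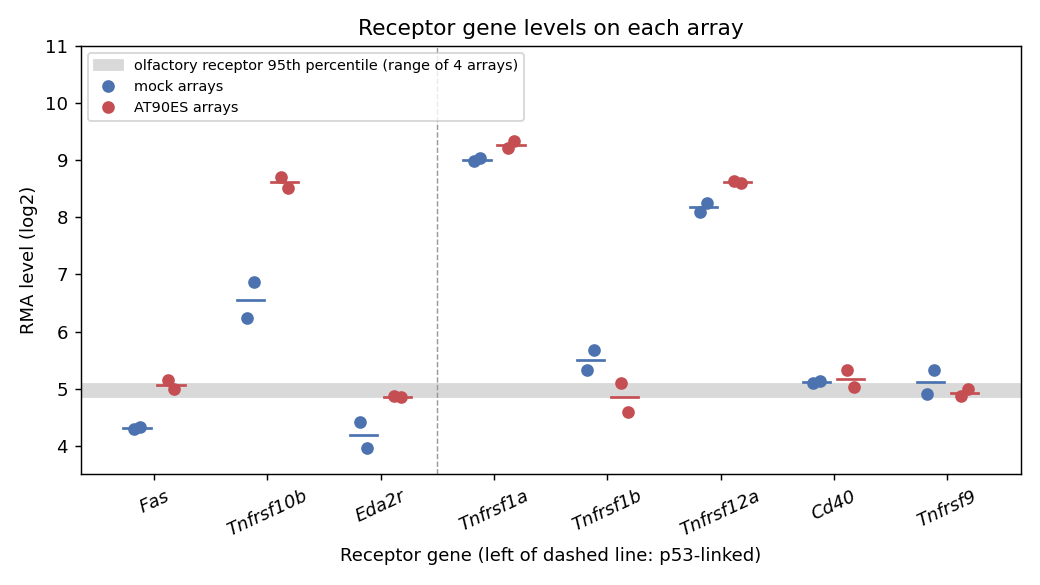
RMA levels (log2, vertical axis) of the 8 receptor genes on each of the 2 mock (blue) and 2 AT90ES (red) arrays, with a short line at each group's mean and a grey band for background, the range of the olfactory receptor 95th percentile over arrays (4.85 to 5.07). The mean of Tnfrsf10b was 6.55 in mock and 8.61 in AT90ES cells, Fas and Eda2r lay under the band in mock cells and close to it in AT90ES cells, and only Tnfrsf10b, Tnfrsf1a and Tnfrsf12a lay well clear of it on all 4 arrays.

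Tnfrsf1a encodes TNFR1, the main receptor of TNF and the third receptor of the set with a death domain. Its log2 levels were 8.98 and 9.04 on the mock arrays, against 9.21 and 9.33 on the AT90ES arrays. The groups did not overlap, and the 4 arrays lay 3.91 to 4.40 above their background marks. The difference of 0.26 ± 0.12 (SE), 1.20-fold with a 95% interval of 0.976-fold to 1.47-fold, did not pass (limma adjusted p = 0.588). The interval ended below that of Tnfrsf10b, which began at 2.85-fold.

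Tnfrsf12a encodes Fn14, the receptor of the cytokine TWEAK, whose gene is known to respond to growth factors and injury. Its log2 levels were 8.09 and 8.26 on the mock arrays, against 8.64 and 8.59 on the AT90ES arrays, again without overlap and well above background. The difference was 0.44 ± 0.12 (SE), 1.36-fold, with a limma adjusted p = 0.402. With an intensity trend in limma's model of the spread it passed (adjusted p = 0.0241), in a fit that called 1.94% of all genes higher. In that fit Fas had an adjusted p of 0.052.

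Tnfrsf1b encodes TNFR2, which binds TNF without a death domain and is best known from immune cells. Its log2 levels were 5.33 and 5.67 on the mock arrays, against 5.10 and 4.60 on the AT90ES arrays, the last one under background. It was the only one of the 8 with both AT90ES arrays below both mock arrays. The difference of -0.65 ± 0.21 (SE) did not pass (limma adjusted p = 0.461), although only 0.365% of all genes had a lower value. The 2 AT90ES arrays lay 0.50 apart, so the size of the difference is poorly fixed.

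Cd40 and Tnfrsf9 encode costimulatory receptors of immune cells, CD40 of antigen-presenting cells and 4-1BB of activated T cells. The log2 levels of Cd40 were 5.09 and 5.13 on the mock arrays, against 5.33 and 5.02 on the AT90ES arrays. Those of Tnfrsf9 were 4.90 and 5.33 on the mock arrays, against 4.87 and 4.996 on the AT90ES arrays. In both genes the groups overlapped and the levels lay within 0.49 of background. The difference was 0.07 ± 0.15 (SE) for Cd40, with a 95% interval of -0.29 to 0.43, and -0.18 ± 0.17 for Tnfrsf9, with an interval of -0.62 to 0.25. Neither passed (limma adjusted p = 0.931 and 0.806), and with 2 arrays per group those intervals leave room for changes in either direction.

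**Figure D2:**
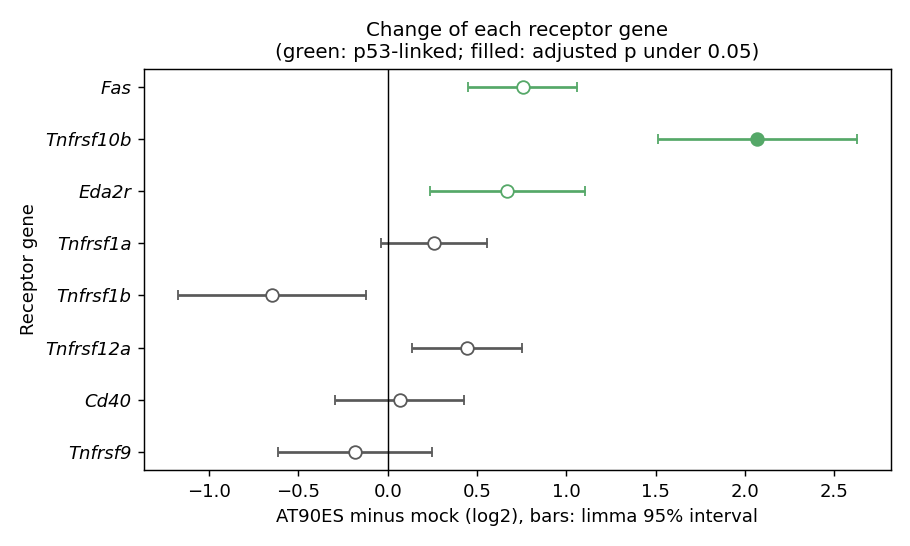
Difference between AT90ES and mock cells (log2, horizontal axis) for each receptor gene, with limma's 95% interval as the bar, green for the p53-linked receptors and grey for the others. The filled point is the called gene, Tnfrsf10b at 2.07, and the p53-linked receptors (0.67 to 2.07) all lie to the right of the other 5 (-0.65 to 0.44).

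Each of the 3 p53-linked receptors had a larger value than any of the other 5. The 3 ranged from 0.67 to 2.07 with a median of 0.75, and the others ranged from -0.65 to 0.44 with a median of 0.07. Without mock replicate 2 this order broke, with Eda2r at 0.45 and Tnfrsf12a at 0.53. The mean change was 1.16 for the p53-linked receptors and -0.01 for the others (-0.12 to 0.09 over the alternative settings), a difference of 1.18. The same contrast taken within each array, the mean log2 level of the 3 minus that of the 5, was -1.49 and -1.63 in mock cells, against -0.38 and -0.39 in AT90ES cells. Only its shift between the groups can be read, since probes differ in response, and centring an array by a constant cannot alter it. The shift was 1.18, with a pooled SD of 0.07 between the 2 arrays of a group. Between the mock replicates Tnfrsf10b went from 6.23 to 6.86 and Eda2r from 4.42 to 3.97. Such moves cancel in a mean of genes, so this SD does not measure how firm the contrast is. Without Tnfrsf10b, the gene with the largest change, the shift was 0.72, with a pooled SD of 0.21. That value rests on Fas and Eda2r alone, both under background on both mock arrays, so its size is uncertain and it lends the contrast no support. No p-value is given because the genes were grouped with earlier results of these arrays known. The smallest gap between the classes, 0.67 for Eda2r against 0.44 for Tnfrsf12a, was about the size of their standard errors (0.17 and 0.12).

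Among the receptors with a death domain, the change was 2.07 for Tnfrsf10b, 0.75 for Fas and 0.26 for Tnfrsf1a. Of these, only Tnfrsf10b and Tnfrsf1a were above background on all 4 arrays.

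Other p53 target genes, from a list of growth arrest, repair and apoptosis genes, had 9 called higher among 24 measured, 0 called lower and 15 short of the threshold, against 0.415% of all genes called higher and 0% lower. Their median change was 0.72 beside -0.02 over all genes, and their changes ran from -0.37 to 3.12. Both AT90ES arrays lay above both mock arrays in 20 of the 24, against 17.7% of all genes. They lay below both in 2, against 22.1%. The list was chosen with earlier results of these data known, so these shares describe it and are no test of it. Trp53inp1, a stress-induced regulator of autophagy and cell death, rose by 3.12 ± 0.12, and Btg2, an antiproliferative gene, by 2.56 ± 0.12 (log2, SE). Plk2, a kinase, rose by 2.55 ± 0.16 and Sesn2, an inhibitor of growth signalling, by 2.08 ± 0.11. The rise of Tnfrsf10b was close to that of Sesn2. The number called was 4 without each of the arrays in turn.

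The remaining 20 genes of the TNF receptor family had 0 members called in either direction by limma, with 0 higher and 1 lower at an unadjusted p under 0.05, and a median change of -0.03. Of the 20, 11 lay above background on all 4 arrays and 5 under it on all 4. Changes of the 20 ran from -0.43 to 0.41, and the genes at both ends lay under background on all 4 arrays. Ltbr, the lymphotoxin beta receptor, had a difference of 0.19 (adjusted p = 0.726). Tnfrsf22, a mouse decoy receptor for TRAIL that cannot signal death, had log2 levels of 7.07 and 7.32 on the mock arrays, against 6.91 and 6.998 on the AT90ES arrays, a difference of -0.24 (adjusted p = 0.668). The related decoy Tnfrsf23, named after its value was seen, lay under background on all 4 arrays with a difference of 0.41.

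Most ligands of the family lay under background. Of 16 measured TNF family ligands limma called 0 higher and 0 lower, with 0 higher and 1 lower at an unadjusted p under 0.05, and 12 lay under background on all 4 arrays. Tnfsf10, which encodes TRAIL, the ligand of Tnfrsf10b, had log2 levels of 3.92 and 3.89 on the mock arrays, against 3.95 and 3.64 on the AT90ES arrays. Fasl, the ligand of Fas, had 3.85 and 3.75 on the mock arrays, against 3.83 and 3.77 on the AT90ES arrays. Eda, the source of the ligand of Eda2r, and Cd40lg, the ligand of Cd40, also lay under background throughout, with differences of 0.33 and -0.27. Only 2 ligands lay above it on all 4 arrays: Tnf, with 5.51 and 5.16 on the mock arrays, against 5.57 and 6.02 on the AT90ES arrays, and Tnfsf9, the ligand of Tnfrsf9, with 6.54 and 6.98 against 6.50 and 6.52. Their differences, 0.46 and -0.25, did not pass (adjusted p = 0.579 and 0.731), and both AT90ES values of Tnf lay above both mock values. Tnfsf12, the ligand of Tnfrsf12a, was not analysed here.

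Of 12 measured members of the death arm of receptor signalling, 11 lay above background on all 4 arrays. The remaining member, Ripk3, named after its values were seen, lay under background on all 4 arrays. Limma called 0 of the 12 higher and 0 lower, with 2 higher and 0 lower at an unadjusted p under 0.05. Casp8, the initiator caspase, had log2 levels of 9.68 and 9.70 on the mock arrays, against 9.91 and 9.66 on the AT90ES arrays, a difference of 0.09 (adjusted p = 0.89). The adaptors Fadd and Tradd stood at -0.10 and 0.16, and Cflar, which encodes the caspase-8 inhibitor c-FLIP, at 0.21. Mlkl, the effector of necroptosis, had 8.90 and 8.96 on the mock arrays, against 9.86 and 9.78 on the AT90ES arrays, a difference of 0.89 that did not pass (adjusted p = 0.0695) but did under an intensity trend, without dim probes and after median centring of the arrays. The list median was 0.10.

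The TRAF and NF-kappaB arm had 0 of 21 measured members called by limma, with 2 higher and 1 lower at an unadjusted p under 0.05 and a median of 0.05. Traf4 and Sharpin, the members with the highest mean levels, had differences of -0.22 and 0.004, and the adaptors Traf1 and Traf2 had 0.005 and 0.08. The ubiquitin ligases Birc2 and Birc3, which restrain receptor-induced death, had values of opposite sign, 0.57 and -0.48, and neither passed (adjusted p = 0.498 and 0.375). The NF-kappaB subunits and inhibitors were also listed with earlier results of these data known. A link between their changes and the receptors was not tested. Of the 10 measured, 3 were called higher, 0 lower and 7 did not pass, against 0.415% of all genes called higher. The median of the 10 was 0.51 beside -0.02 over all genes. The 3 were Nfkbie at 1.97 ± 0.12, Nfkb2 at 1.37 ± 0.12 and Nfkbia at 1.35 ± 0.13 (log2, SE), and 1 of the 10 was called without each of the arrays in turn.

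**Figure D3:**
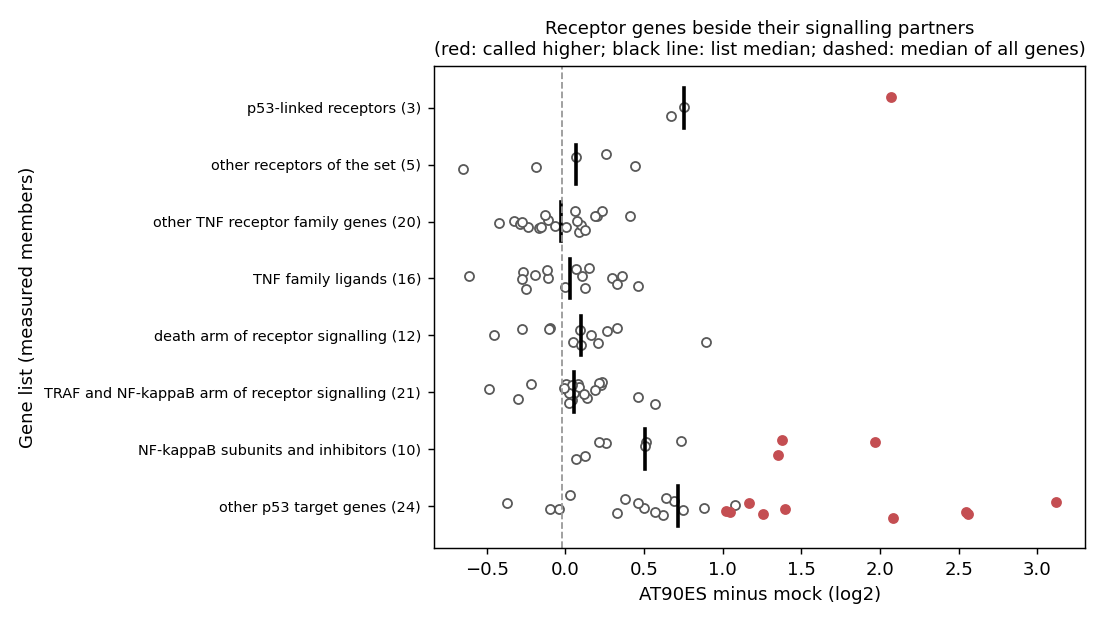
Difference between AT90ES and mock cells (log2, horizontal axis) for every measured member of 8 gene lists, with a black line at each list's median, a dashed line at the median of all genes (-0.02) and red points for genes called higher. Red points occur in 3 lists: Tnfrsf10b among the p53-linked receptors, 3 NF-kappaB genes and 9 other p53 targets.

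The genes whose profile over the 4 arrays was most like that of each p53-linked receptor were sought among 12991 other genes above background on at least 2 arrays, by the Euclidean distance between mean-centred log2 levels. Nearest to Tnfrsf10b were Apobec1 (distance 0.12), Rhbdf2 (0.26) and Irgm2 (0.28). Like Tnfrsf10b these had mock replicate 1 lower than mock replicate 2, and Apobec1 had 5.33 and 5.85 on the mock arrays, against 7.77 and 7.69 on the AT90ES arrays. Nearest to Fas were Fam214a (0.05), Pck2 (0.05) and Plod2 (0.06), with differences of 0.71, 0.72 and 0.76. Nearest to Eda2r were Olfm1 (0.06), Samd12 (0.10) and Gm14393 (0.11). Samd12, Gm14393 and Irgm2 lay under background on both mock arrays. They met the filter only through the AT90ES arrays, where they are high. These matches rest on 4 arrays and are a description.

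**Figure D4:**
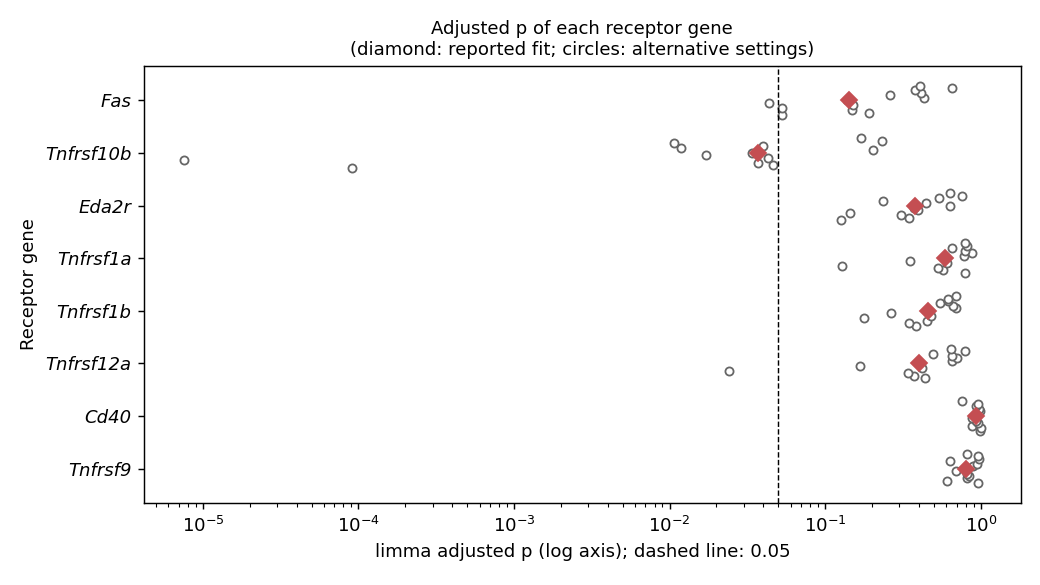
Limma adjusted p (log axis) of each receptor gene in the reported fit (diamond) and under the alternative settings (circles), with a dashed line at the threshold of 0.05. Tnfrsf10b ranged from 7.56e-06 to 0.231, Fas and Tnfrsf12a each crossed the line under 1 setting, and the other 5 stayed to the right of it in every setting plotted.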

How the data were processed

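Per the labels' protocols, 300 ng of total RNA was labelled for each array with the GeneChip WT PLUS kit. The deposited log2 values, 1 per probe and array for 41345 probes, were the authors' RMA output (per the submitters' processing notes). RMA corrects background, normalizes arrays to each other and summarises each probe set, so changes shared by all genes are removed; its settings and a genome build are not given in the sources used here. Depth has no counterpart on arrays, and their number limits the precision.

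Probes were named from the platform's annotation. The 23521 probes with 1 symbol gave 22180 genes, and the probe with the highest mean stood for a gene; each of the 8 receptors had 1 probe. The comparison of AT90ES with mock used limma 3.58.1 in R 4.3.3 (lmFit and eBayes, no filter), two-sided, with Benjamini-Hochberg adjustment across all genes and a threshold of 0.05. The steps were tested on simulated data. An exact permutation test of 2 against 2 arrays cannot go below p = 0.333. The receptors, their grouping and the gene lists were chosen with earlier results of these data known. From each list the text names up to 4 called members, largest change first, or where none was called the 2 with the highest mean, plus a fixed set of ligands and adaptors; genes named outside this rule are said to be so. Receptor proteins were not compared here. Alternatives changed the scaling, spread model, probe choice, dim-probe filter, replicate block and the arrays used.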

Additional observations from a re-analysis of the deposited data

How the results depend on the processing

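With 2 arrays per group, call counts moved easily. The number of receptors called higher was 2 with an intensity trend, 2 with dim probes left out (the second, Fas, met that filter only through its AT90ES arrays), 0 with every probe tested separately and 0 to 1 without single arrays; no receptor was called lower in any setting run. Receptor values kept their sign in every setting run, except Cd40 (-0.09 to 0.22) and Tnfrsf9 (-0.40 to 0.03). Many settings could not change a sign. The spread models, the dim-probe filter, the probe choices and the replicate block left each receptor value they kept as it was. Leaving out 1 array cannot turn the sign of a gene whose groups do not overlap. The shift between the p53-linked and the other receptors ran from 1.11 to 1.24. Centring an array cannot move this shift either, so only quantile normalization and the fits without single arrays could. Nothing in the labels says that same-numbered arrays form pairs, so the numbers were not taken to pair them. The deviations of same-numbered arrays from their group means had r = -0.22 across genes. Genes are not independent, so this value cannot settle the pairing. With the replicate block 1 receptor was called, Tnfrsf10b (adjusted p = 0.0119), and 85 genes were called higher. A crossed pairing, chosen after the data were seen, also called 1 receptor and 59 genes. Against 92 genes called higher, the number was 172 with arrays centred on their median (4 lower), 431 with an intensity trend (162 lower), 165 with dim probes left out (6 lower), 30 with every probe tested separately and 32 to 47 without single arrays, where the single array left in a group is given the spread of the other group. Other p53 targets called numbered 16 with an intensity trend and 3 with every probe tested separately. The cause of these differences was not tested.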
